A study of Mus musculus with 22 samples.

Results

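The expression of 10 pigmentation genes was examined in the retinal pigment epithelium (RPE) and the retina of mice without adiponectin receptor 1 (AdipoR1–/–, KO) and of wild-type (WT) mice. The genes, Mitf, Tyr, Tyrp1, Dct, Pmel, Mlana, Oca2, Slc45a2, Gpr143 and Rab38, are listed genes of melanogenesis, and a symbol was matched to each Ensembl identifier to find them. They made up 10 of 53801 identifiers in the bulk count tables, and all 10 were also among the 19324 genes of the single-cell matrix. The RPE is a sheet of pigmented cells behind the photoreceptors, which it feeds, clears of shed outer segments and supplies with visual chromophore. Its melanin is made in melanosomes, organelles in which enzymes that act on tyrosine lay pigment onto fibrils, with transporters and a receptor in the melanosome membrane and sorting proteins that deliver the cargo. In this tissue pigment is made mostly during development, and loss of several of these genes causes albinism.

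Bulk RNA was sequenced from whole retina and from RPE at postnatal day 30 (P30), with 4 mice in each of the 4 groups of genotype and tissue. Single cells came from 6 retina libraries, 1 for each genotype at P19, P25 and P30, each made from 4 retinae. Every library was labelled C57BL/6J with the genotype WT or AdipoR1–/–, and the KO mice were homozygous for Adipor1tm1Dgen, an allele that came from a B6.129P2 line and was present in the whole animal. RPE cells had been shaken loose from the eyecups, from which choroid and sclera were then taken away, and retinas of both eyes were used. The study's methods also name an albino Tyr mutant line as a background, and no library used here was labelled as albino.

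The RPE libraries held between 20133143 counts (WT replicate 4) and 38409496 counts (WT replicate 2), and the retina libraries between 22734843 (KO replicate 4) and 35118164 (KO replicate 1). No pair of bulk libraries held the same counts. Levels are given as CPM, counts scaled to each library's normalised total, replicates 1 to 4 in order, and means with their standard deviation (SD, n = 4). As a check of the genotype labels, Adipor1 (ENSMUSG00000026457, chr1:134415378-134433351, GRCm38) stood at 379, 404, 479 and 374 CPM in WT RPE and at 142, 148, 152 and 139 CPM in KO RPE. Retina libraries showed 605, 601, 589 and 607 CPM in WT and 142, 138, 136 and 138 CPM in KO. In each tissue the KO libraries were all lower than the WT libraries. The log2 difference was -1.49 in RPE (standard error [SE] 0.09, adjusted p 0.00021) and -2.12 in retina (SE 0.04, adjusted p 4.6e-13). All bulk tests are quasi-likelihood tests of edgeR, adjusted after Benjamini and Hochberg over all genes tested, and a gene is said to have risen or fallen where its adjusted p was below 0.05.

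Replicates 1 and 2 of every bulk group differed from replicates 3 and 4 in sex-linked genes. In RPE the female transcript Xist stood between 650.0 and 845 CPM in replicates 3 and 4 of both genotypes, and in all bulk libraries it was at most 5.57 CPM in replicates 1 and 2. The Y-linked Ddx3y was at most 0.24 CPM where Xist was above 100 CPM and at least 55.3 CPM elsewhere. Each group thus held 2 libraries of either kind, and the genotypes were balanced for it.

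Markers of other tissues varied among the RPE libraries, most of all within the WT group. Summed over 10 rod markers, the level was 1294, 17230, 17200 and 1843 CPM in WT RPE and 833, 4167, 5896 and 1215 CPM in KO RPE, so WT replicates 2 and 3 stood far above the other WT libraries. KO replicates 2 and 3 were likewise above the other KO libraries. The 3 ciliary epithelium markers (Best2, Zic1 and Zic2; Best2 the most abundant) summed to 25.2, 47.1, 10.6 and 105 CPM in WT and 27.9, 20.9, 7.90 and 7.81 CPM in KO. The 8 lens markers summed to 32.4, 374, 32.8 and 800.2 CPM in WT and 39.0, 26.0, 17.6 and 19.1 CPM in KO, led by Cryaa. WT replicates 2 and 4 were thus the highest of the 8 RPE libraries for ciliary and lens genes. The labelled tissue itself was present in each library, as the 10 RPE markers summed to 56620, 36570, 52200 and 56610 CPM in WT and 47800, 47120, 47820 and 49460 CPM in KO, led by Ttr.

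In the RPE, 1 of the 10 genes passed the test between genotypes. Gpr143 rose in KO RPE, and the other 9 did not pass. Of all 18989 genes tested in RPE, 6.73% passed (2.84% higher and 3.89% lower in KO), so 1 of 10 is a count near the background and not a result about the genes as a list. The median log2 difference was -0.09 over the 10 genes and -0.02 over all genes tested. All 10 passed the filter on low counts in RPE.

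Mitf (chr6:97807052-98021349) encodes the transcription factor that drives many pigmentation genes. Its level was 103, 70.0, 90.9 and 101 CPM in WT RPE and 92.9, 87.8, 78.8 and 84.3 CPM in KO RPE. All 4 KO libraries lay within the WT range, whose lowest library was replicate 2. The log2 difference of -0.09 (SE 0.12, p 0.504, adjusted p 0.72) was smaller than its error.

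The 3 enzymes act in sequence on tyrosine and its products. Tyr (chr7:87424771-87493512), the rate-limiting tyrosinase, had 473, 303, 467 and 517 CPM in WT and 525, 492, 492 and 504 CPM in KO. WT replicate 2 was the only library well below the rest, and KO replicate 1 was the only KO library above all WT libraries. The groups overlapped, with a log2 difference of 0.19 (SE 0.15, adjusted p 0.52). For Tyrp1 (chr4:80834123-80851719), a tyrosinase-related melanosomal enzyme, the libraries had 728, 549, 616 and 959 CPM in WT and 766, 671, 598 and 657 CPM in KO. Dct (chr14:118012790-118052244), the dopachrome tautomerase, had 2289, 2864, 2003 and 3500 CPM in WT and 2650, 2293, 1867 and 2219 CPM in KO. Both were highest in WT replicate 4, and their groups overlapped. Their log2 differences were -0.08 (SE 0.17, adjusted p 0.81) and -0.24 (SE 0.19, adjusted p 0.52).

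Pmel (chr10:128704195-128720238) encodes the protein of the fibrils on which melanin is laid down. It stood at 639, 608, 501 and 1001 CPM in WT RPE and 578, 479, 313 and 499 CPM in KO RPE. KO replicates 2, 3 and 4 lay below every WT library and KO replicate 1 lay inside the WT range. The log2 difference was -0.56 (SE 0.25, p 0.0576, adjusted p 0.26) and did not pass. When single libraries were left out it ran from -0.68 to -0.32, and over all alternatives from -0.73 to -0.20. Its exons share bases with Cdk2 and Dgka on the other strand, and because the sources used here do not give the strand of counting, reads of these genes there cannot be told apart. Mlana (chr19:29697824-29708634), a melanosome membrane protein that binds Pmel, had 114, 136, 91.1 and 230.1 CPM in WT and 165, 139, 109 and 135 CPM in KO. All KO values lay inside the WT range, which WT replicate 4 extended, and the log2 difference was -0.06 (SE 0.28, adjusted p 0.93).

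Oca2 and Slc45a2 are melanosomal transport proteins whose loss causes oculocutaneous albinism. Oca2 (chr7:56239760-56536518) had 212, 129.6, 222 and 231 CPM in WT and 198, 197, 188 and 204 CPM in KO. The KO libraries sat close together within the WT range (SD 6.53 against 46.7 CPM), with a log2 difference of -0.02 (SE 0.17, adjusted p 0.97) that was positive by library totals alone (0.001). Slc45a2 (chr15:11000721-11029233) stood at 47.0, 28.0, 40.6 and 55.1 CPM in WT and 35.8, 30.5, 31.8 and 36.5 CPM in KO. WT replicate 2 lay below all KO libraries and the other WT libraries lay above them, and the log2 difference of -0.34 (SE 0.19, adjusted p 0.36) did not pass. Without WT replicate 2 it passed, at a log2 difference of -0.49 and an adjusted p of 0.042, the lowest of a range up to 0.97 over its alternatives.

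Gpr143 (chrX:152781921-152808646) encodes a receptor of the melanosome membrane that is mutated in ocular albinism and bears on melanosome number and size. Its level was 71.0, 44.1, 55.9 and 64.8 CPM in WT RPE and 104, 102, 96.3 and 104 CPM in KO RPE. The groups did not overlap, and the KO libraries lay close together above the highest WT library. The mean was 59.0 ± 11.7 CPM in WT and 101 ± 3.52 CPM in KO, a 1.72-fold rise (log2 0.78, SE 0.14, p 0.000407, adjusted p 0.013; higher in 4 of 4 KO libraries). Bulk values cannot tell a change in the number of cells of a type from a change in RNA per cell. The gene lies on the X chromosome, and with the Xist split as a covariate, chosen after seeing the data, the log2 difference was 0.78 with an adjusted p of 0.029. Over all alternatives the log2 difference ran from 0.68 to 1.02 and the adjusted p from 1.5e-07 to 0.088, and it missed the threshold in a fit of both tissues together (0.067) and, in settings chosen after seeing the data, with the ciliary marker level as a covariate (0.056) and without WT replicate 4 and KO replicate 1 (0.088).

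Markers of microglia and macrophages moved in the same direction as Gpr143, with 11 of 15 higher (2.84% of all genes tested were) and 0 lower in KO RPE and a median log2 difference of 1.31. Their sum was 758, 478, 626 and 715 CPM in WT and 898, 951, 964 and 1004 CPM in KO, so every KO library lay above every WT library. Csf1r, the most abundant, did not pass (log2 0.20, adjusted p 0.5), while C1qa had 13.3, 9.16, 7.20 and 12.5 CPM in WT and 36.9, 52.1, 49.0 and 52.4 CPM in KO (log2 2.18, adjusted p 0.0013). The other 5 named by smallest p, C1qb (1.92), C1qc (1.98), Ctss (2.17), Cx3cr1 (1.64) and Cd68 (1.32), rose by log2 differences with adjusted p values from 0.0013 to 0.0059. The part of these cells in the Gpr143 level was not tested. In the single-cell libraries of retina, 133 microglia-like cells held 0 of the 30 UMIs (unique molecular identifiers) of Gpr143, which by an exact Poisson interval allows up to 0.0584 per 10000 UMIs, and such cells of the RPE samples were not measured.

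Rab38 (chr7:88430273-88491572), a small GTPase that directs enzymes to melanosomes, had 21.2, 19.6, 11.2 and 19.2 CPM in WT RPE and 16.1, 12.1, 9.26 and 12.2 CPM in KO RPE. KO replicate 3 was the lowest and WT replicate 3 the lowest of its group, and the groups overlapped (log2 -0.52, SE 0.23, p 0.0584, adjusted p 0.27). Rab38 and Tyr lie on the same chromosome with 936761 bases between them, and no member lies on chromosome 1 with Adipor1.

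**Figure D1:**
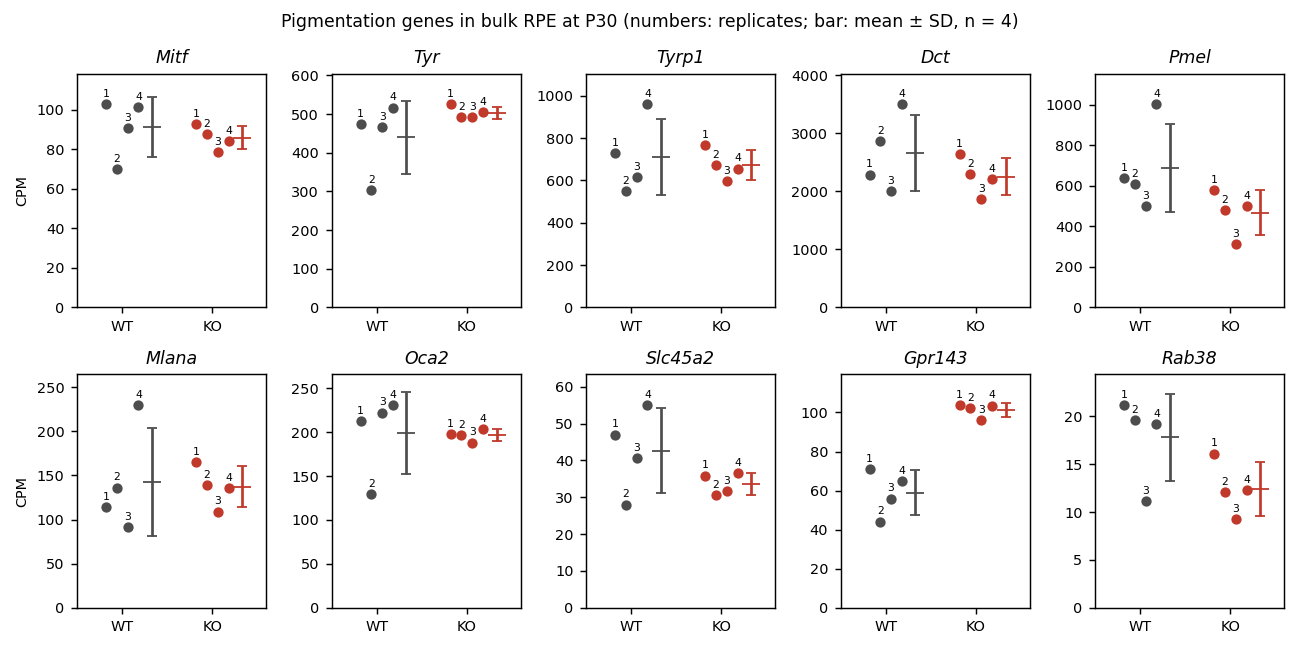
Level of each pigmentation gene in CPM in the 4 WT and 4 KO RPE libraries, each gene on its own axis from 0, with 1 numbered point per library and a bar for the mean ± SD. Gpr143 is the gene whose KO points, 96.3 to 104 CPM, all lie above its WT points, 44.1 to 71.0 CPM.

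Per length of exon, the WT RPE levels of the 10 genes fell into an order that spanned a wide range. In CPM per kilobase, mean and SD over 4 WT libraries, Dct (452 ± 112), Pmel (299.7 ± 94.8), Tyrp1 (252 ± 63.6) and Mlana (135 ± 57.7) were the 4 highest. Tyr (61.9 ± 13.2), Oca2 (50.2 ± 11.8) and Gpr143 (29.6 ± 5.85) followed, and Mitf (14.7 ± 2.44), Slc45a2 (14.3 ± 3.83) and Rab38 (11.3 ± 2.86) were the lowest. Neighbours in this order overlapped over the WT libraries except Mlana with Tyr and Gpr143 with Mitf. On the same scale in KO RPE, Tyrp1 (238) stood above Pmel (204), and Gpr143 (50.9) stood above Oca2 (49.6).

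The 10 genes differed in how far they varied among the 8 RPE libraries. From the lowest to the highest library, centred log2 CPM spanned 1.68 for Pmel, 1.34 for Mlana, 1.23 for Gpr143 and 1.19 for Rab38, and 0.55 for Mitf, the smallest. WT replicate 4 was highest for Tyrp1, Dct, Pmel, Mlana, Oca2 and Slc45a2, and WT replicate 2 was lowest for Mitf, Tyr, Tyrp1, Oca2, Slc45a2 and Gpr143. Summed over the 10 genes, led by Dct, the level was 4696, 4752, 4098 and 6678 CPM in WT RPE and 5131, 4503, 3783 and 4455 CPM in KO RPE. The same WT replicate 4 had the highest ciliary and lens marker sums, whose part in these levels was tested only through the covariate for ciliary markers. With it, no pigmentation gene passed, and Mlana (0.44), Tyrp1 (0.11) and Dct (0.07) changed the sign of their log2 differences. With the rod marker level as a covariate 2 genes passed, Gpr143 and Pmel (log2 -0.73, adjusted p 0.047, with a range from 0.047 to 0.62). With the RPE marker level 3 passed, Gpr143, Tyr (log2 0.48, adjusted p 0.0062, range 0.0062 to 0.70) and Oca2 (log2 0.30, adjusted p 0.041, range 0.041 to 1.0). These covariates were chosen after seeing the data, and the RPE marker list holds Rpe65 and Lrat, which fell in KO. The number of all genes passing moved as well, from 1278 without a covariate to 630, 2047 and 2305 with the ciliary, rod and RPE marker levels.

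**Figure D2:**
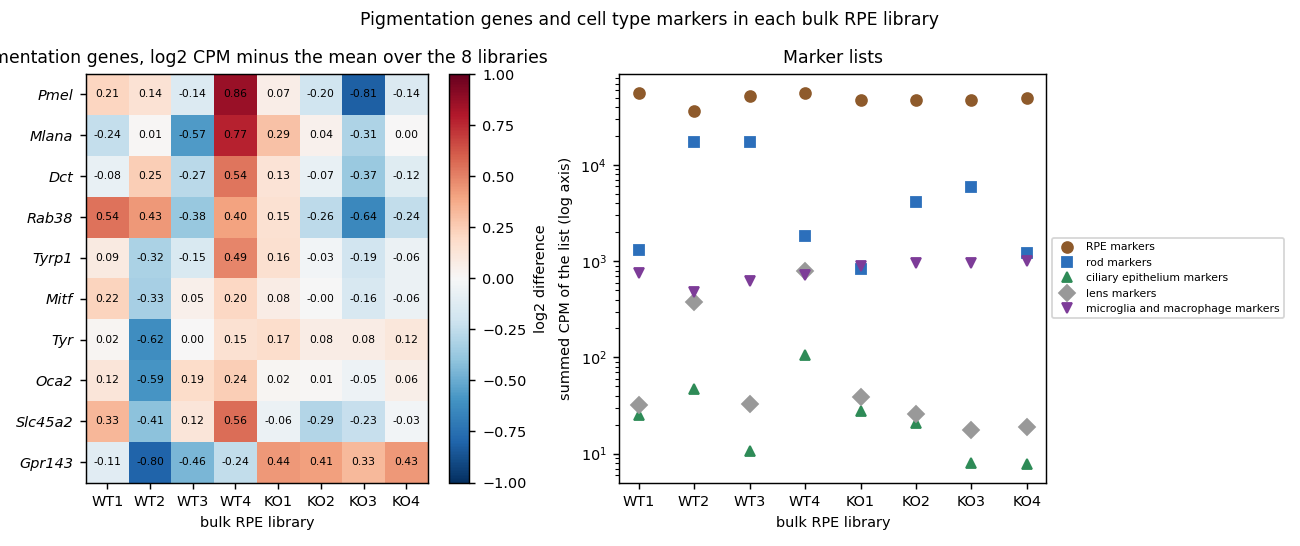
Left, log2 CPM of each pigmentation gene in each RPE library minus its mean over the 8 libraries; right, the summed CPM of each marker list in the same libraries on a log axis. WT replicate 4 is highest for Tyrp1, Dct, Pmel, Mlana, Oca2 and Slc45a2, and its ciliary marker sum of 105 CPM is the highest of the 8.

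The mean centred profile of the 10 genes over the 8 RPE libraries was 0.11, -0.22, -0.16 and 0.40 in WT and 0.15, -0.03, -0.24 and -0.004 in KO (log2), with its peak in WT replicate 4. Among 10779 genes outside the lists with a mean of at least 10 CPM, those closest to it by root mean square difference were Asph (0.05), Crtap (0.06), Rnaset2b (0.06), Gpc6 (0.07) and Tmem64 (0.07).

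Of the other genes of the pathway, taken from 4 lists, 1 passed in KO RPE. Beside it 6.73% of all 18989 genes tested passed, so this count is no result about the lists. Over all genes DESeq2 called 2701 and limma-voom 1278, the background for the list counts in RPE by these tools. No such background is given for unadjusted p values. Of 22 genes for melanosome formation and cargo sorting, 0 passed by edgeR in either direction, with a median log2 difference of 0.07; 5 had an unadjusted p below 0.05, and DESeq2 called 4 and limma-voom 0. Of 7 melanosome transport genes 0 passed (median -0.17; 2 had an unadjusted p below 0.05, and DESeq2 and limma-voom called 0). Of 10 tested transcription factors of the RPE and of the MITF family 0 passed (median -0.05; 1 had an unadjusted p below 0.05, DESeq2 called 1 and limma-voom 0). Of 8 genes for ion and solute transport of the melanosome, 1 rose (median 0.05). That gene was Atp7a (chrX:106027276-106124926), which carries copper to tyrosinase and other enzymes, at 65.8, 40.6, 70.0 and 51.1 CPM in WT and 107, 109.5, 109.8 and 110.1 CPM in KO. Every KO library lay above every WT library. The 1.92-fold rise (log2 0.94, SE 0.16, adjusted p 0.012) did not pass without WT replicate 4 and KO replicate 1 (adjusted p 0.1, with a range over its alternatives from 9.2e-08 to 0.1), and it was 0.94 with an adjusted p of 0.025 with the Xist split as a covariate.

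Lhx2, a transcription factor of the developing eye named here after its values were seen, had 73.0, 67.3, 68.0 and 91.1 CPM in WT and 57.8, 58.5, 53.0 and 55.0 CPM in KO. Its groups did not overlap, but the log2 difference of -0.41 (adjusted p 0.051) missed the threshold, and it passed by library totals alone, the 1 further gene of the pathway lists to do so. The formation genes, led by Gpnmb (649, 808, 582 and 1232 CPM in WT and 1202, 941, 796 and 1027 CPM in KO), summed to 1738, 1831, 1641 and 2398 CPM in WT and 2359, 2065, 1939 and 2160 CPM in KO. The transport genes, led by Myrip, summed to 1487, 1160, 1354 and 1485 CPM in WT and 1439, 1326, 1322 and 1350 CPM in KO, and the ion and solute transport genes, led by Trpm1, to 1249, 1325, 1127 and 1716 CPM in WT and 1404, 1288, 1064 and 1293 CPM in KO. In all 3 lists the sums of the genotypes overlapped. The transcription factors, led by Ctnnb1, with Tfec below 1 CPM in every library, summed to 1714, 1562, 1556 and 1799 CPM in WT and 1757, 1696, 1610 and 1651 CPM in KO.

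Of the 10 RPE markers, 2 fell and 0 rose, with a median log2 difference of -0.15 (4 had an unadjusted p below 0.05, DESeq2 called 4 and limma-voom 2). Of all genes tested in RPE 3.89% fell. Rpe65, the isomerase of the visual cycle, had 4578, 2751, 4624 and 4326 CPM in WT and 2141, 2079, 2142 and 2150 CPM in KO, and Lrat, which makes its substrate, had 2632, 1941, 2941 and 2718 CPM in WT and 1502, 1494, 1460 and 1688 CPM in KO. In both the groups did not overlap. Rpe65 fell by a log2 difference of -0.94 (SE 0.17, adjusted p 0.016) and Lrat by a log2 difference of -0.74 (SE 0.14, adjusted p 0.018). Each missed the threshold in 5 of 19 alternatives, with adjusted p up to 0.13 for Rpe65 (in a fit of both tissues 0.12, without KO replicate 1, 2 or 4 0.057, 0.056 and 0.062, without WT replicate 4 and KO replicate 1 0.13) and up to 0.17 for Lrat (in a fit of both tissues 0.17, without KO replicate 1, 2 or 3 0.069, 0.06 and 0.056, without the pair 0.14); the lowest were 2.4e-07 and 1.1e-06. Ttr, the most abundant, stood at 21150, 13760, 18950 and 21670 CPM in WT and 24080, 24430, 24770 and 25710 CPM in KO, with no overlap (log2 0.39, adjusted p 0.29). Over its alternatives the adjusted p ran from 0.0053 to 0.53, and Ttr passed as higher with DESeq2 (0.044). The lowest value came from the RPE marker covariate, a sum that Ttr itself leads, and is no separate test of Ttr.

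Melanocytes of the choroid also express the pigmentation genes. Of 6 neural crest melanocyte markers 0 passed (median log2 difference 0.40; Pax3 below 1 CPM in every RPE library; 3 had an unadjusted p below 0.05, DESeq2 called 2 and limma-voom 1), and they summed to 272, 163, 189 and 218 CPM in WT and 235, 203, 194 and 233 CPM in KO. Sox10, the most abundant, had 164, 117, 142 and 152 CPM in WT and 116, 97.4, 112 and 109 CPM in KO, with no overlap (log2 -0.40, adjusted p 0.071, and 0.0032 to 0.25 over 19 alternatives, of which 5 passed, 1 of them without WT replicate 2). Other markers of the list, named after their values were seen, were higher in KO, among them Cdh19, also with no overlap (14.6, 6.99, 12.8 and 18.4 CPM in WT and 27.2, 24.4, 22.5 and 24.4 CPM in KO; log2 0.90, adjusted p 0.085), Erbb3 (log2 1.05, adjusted p 0.32) and Kit (log2 0.35, adjusted p 0.46), while Mc1r was lower (log2 -0.83, adjusted p 0.2). The 10 markers of choroid stroma and endothelium summed to 2219, 1126, 726 and 898 CPM in WT and 1868, 1373, 1043 and 1618 CPM in KO, led by Col3a1 (log2 0.41, adjusted p 0.67), and 0 of 10 passed (median 0.24; 0 had an unadjusted p below 0.05, and DESeq2 and limma-voom called 0). Of the rod markers 0 of 10 passed (median -1.45; 1 at an unadjusted p below 0.05) and of the ciliary markers 0 of 3 (median -1.25; 1 at an unadjusted p below 0.05), and DESeq2 and limma-voom called 0 in both lists. Of 7 lens markers tested 2 fell (median -1.92; 6 had an unadjusted p below 0.05, DESeq2 called 6 and limma-voom 2), Lim2 (log2 -0.92, adjusted p 0.0078) and Mip (log2 -1.89, adjusted p 0.017). Over its alternatives the adjusted p of Mip ran from 2e-05 to 0.085, and it missed without KO replicate 2 (0.062), 3 (0.055) or 4 (0.065), with the ciliary covariate (0.054) and without WT replicate 4 and KO replicate 1 (0.085). The part of melanocytes and choroid in the RPE levels was not tested.

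Retina libraries showed low levels of all 10 genes, and 1 of the 9 tested passed between genotypes. Pmel was higher in KO retina, while 30.9% of all 19381 genes tested in retina passed (16.2% higher and 14.7% lower), so 1 of 9 is no result about the genes as a list, and under the alternatives 0 to 3 passed. The median log2 difference was 0.58 over the 9 genes and 0.004 over all genes. Slc45a2 was not tested because its counts, 4 to 12 per library, were below the filter on low counts.

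Retinal Pmel stood at 2.72, 4.34, 5.31 and 7.75 CPM in WT and 7.86, 9.44, 8.60 and 7.86 CPM in KO. Every KO library lay above every WT library, WT replicate 4 being just below the lowest KO library. It rose 1.68-fold (log2 0.75, SE 0.22, p 0.00486, adjusted p 0.02). Over its alternatives the log2 difference ran from 0.54 to 1.04 and the adjusted p from 0.0013 to 0.098, and it missed the threshold with DESeq2 (0.051), in a fit of both tissues (0.098) and without WT replicate 2 (0.054), where Dct passed in its place. Reads of Cdk2 and Dgka on shared exon bases cannot be told apart here either, at Pmel counts of 80 to 315 per library.

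Gpr143 in retina rested on counts of 0, 1, 1 and 12 in WT and 13, 12, 15 and 12 in KO, or 0, 0.0352, 0.0377 and 0.423 CPM in WT and 0.357, 0.359, 0.508 and 0.505 CPM in KO. The KO libraries were alike, and WT replicate 4 was level with them, so the groups overlapped. The log2 difference was 1.74 (SE 0.66, adjusted p 0.061). With 0, 1 and 1 counts in the other WT libraries, the gene passed the filter on low counts through the KO libraries and WT replicate 4. Calls of Gpr143 in retina, under any setting, are therefore only a description. With replicate number as a block, the paired fit, 3 genes passed: Pmel, Gpr143 (log2 1.91, adjusted p 0.026) and Dct (log2 0.82, adjusted p 0.0043). Over its alternatives the adjusted p of Gpr143 ran from 0.00052 to 0.15 and that of Dct from 0.0043 to 0.26. The lowest for Gpr143 came without WT replicate 4 (log2 3.94), where Tyr also passed (log2 1.04, adjusted p 0.029). The WT group then held 0, 1 and 1 counts of Gpr143, which passed the filter through the KO libraries alone, so this value is not interpreted.

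Dct in retina had 4.97, 18.5, 10.5 and 16.1 CPM in WT and 15.8, 34.2, 20.3 and 14.9 CPM in KO. WT replicate 1 was the lowest and KO replicate 2 the highest, and the others overlapped (log2 0.77, SE 0.33, adjusted p 0.095). Tyrp1 followed the same order of libraries in WT, with 1.36, 5.29, 3.28 and 4.26 CPM in WT and 3.87, 7.76, 4.74 and 3.57 CPM in KO (log2 0.50, adjusted p 0.28). Mitf stood at 6.70, 8.88, 6.71 and 7.19 CPM in WT and 6.51, 7.49, 7.72 and 9.08 CPM in KO, with overlapping groups (log2 0.06, adjusted p 0.77). Tyr (log2 0.62, adjusted p 0.19), Mlana (0.58, 0.33), Oca2 (0.37, 0.37) and Rab38 (0.03, 0.95) stayed between 0.204 and 2.37 CPM in every retina library and did not pass.

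Markers of other cells differed between genotypes in the retina libraries. The 10 RPE markers, led by Rlbp1, which Muller glia also express, summed to 482, 495, 499.5 and 516 CPM in WT and 488, 478, 559 and 464 CPM in KO, and 0 of 10 passed (median log2 difference -0.07; 0 had an unadjusted p below 0.05, and DESeq2 and limma-voom called 0). Rod markers fell in 9 of 10 cases (median -0.92) and summed to 70200, 70980, 64310 and 63920 CPM in WT and 37800, 36020, 36060 and 33000 CPM in KO. Microglia markers rose in 14 of 15 (median 2.05), with sums of 75.2, 78.5, 80.8 and 76.2 CPM in WT and 264, 268, 306 and 286 CPM in KO. Choroid markers rose in 5 of 9 tested by edgeR (median 1.10), and DESeq2 and limma-voom called 2 each. KO replicate 2 stood apart with 40.1 CPM of Col3a1 against at most 3.87 in the other libraries. The list summed to 236, 259, 206 and 198 CPM in WT and 396, 447, 378 and 377 CPM in KO. These sums were led by Kdr, at a mean of 173 CPM in WT and 316 CPM in KO. Kdr was higher in WT retina than in WT RPE (log2 RPE over retina -1.14), so the sums do not measure choroid alone. The ciliary markers (0 of 3 passed, median 0.06, 0 at an unadjusted p below 0.05) summed to 5.17, 10.7, 8.14 and 11.0 CPM in WT and 10.2, 11.7, 6.63 and 10.1 CPM in KO, and the lens markers (0 of 4 passed, median -1.52, 2 at an unadjusted p below 0.05) to 1.02, 11.6, 2.22 and 55.7 CPM in WT and 4.45, 4.79, 1.59 and 1.93 CPM in KO. DESeq2 and limma-voom called 0 in both of these lists. Of 4 melanocyte markers tested 1 rose and 1 fell (median 0.17), and the list summed to 14.8, 15.3, 13.3 and 14.1 CPM in WT and 13.7, 19.9, 13.9 and 14.3 CPM in KO, with Sox10, Pax3 and Cdh19 below 1 CPM in every retina library. The part of these cells in the retinal levels of the pigmentation genes was not tested.

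The pathway lists were read beside the 30.9% of all genes that passed in retina, against 6.73% in RPE. For melanosome formation 8 rose and 2 fell of 22 (median log2 difference 0.06), for transport 3 rose and 2 fell of 7 (0.11), for ion and solute transport 2 rose and 1 fell of 8 (0.10), and of 10 transcription factors 3 rose (0.10). Atp7a did not pass in retina (log2 0.09, adjusted p 0.49). Genes named here after their values were seen include Gpnmb (log2 0.94, adjusted p 0.00049), Cd63 (0.80, 2.8e-06), Mlph (1.64, 0.016) and Rab32 (0.72, 0.024), which rose, and Myrip (-0.41, 0.00011) and Mreg (-0.45, 6.5e-05), which fell.

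Whether the genotype effect differed between RPE and retina was tested as an interaction over all 16 bulk libraries. By edgeR 0 of the 10 genes passed, against 8.84% of 21068 genes (3.11% with a higher and 5.73% with a lower effect in RPE); 2 had an unadjusted p below 0.05, and DESeq2 called 1 and limma-voom 0. The RPE effect minus the retina effect was -1.28 on the log2 scale for Pmel (SE 0.38, p 0.00482, adjusted p 0.053), which was lower in 3 KO RPE libraries and higher in all 4 KO retina libraries than in any WT library of the tissue. Over its alternatives the adjusted p ran from 0.015 to 0.096, and Pmel passed with DESeq2 (0.02), by library totals (0.027), with replicate number as a block (0.038), without WT RPE replicate 3 (0.038) and without WT retina replicate 4 (0.015). Without that retina library Gpr143 passed as well (-3.11, adjusted p 0.0018). WT retina then held 0, 1 and 1 counts of Gpr143, so its retina effect rests on the KO libraries and this value is not interpreted. For Dct the difference of effects was -0.98 (SE 0.49, adjusted p 0.25) and for Gpr143 -0.93 (SE 0.65, adjusted p 0.44). Slc45a2, the other gene with an unadjusted p below 0.05 (0.0222), did not pass the filter in retina and entered only through its RPE counts, so its difference between tissues is not interpreted. A difference between tissues in the Gpr143 effect was therefore not shown with all libraries. The median over the 10 genes was -0.58, and over all genes -0.05. For Pmel, reads of Cdk2 and Dgka on shared exon bases cannot be told apart in either tissue.

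WT RPE was compared with WT retina to show where the genes were measured. All 10 were higher in RPE, while of 20009 genes tested 81.9% differed (41.4% higher and 40.4% lower); as pigment genes they passed the filter through the RPE libraries, so this is a description. The fold was 15.4 for Mitf and 17.9 for Rab38, between 168.6 (Pmel) and 265 (Slc45a2) for 4 others including Tyrp1 (249) and Dct (263), and 329 for Oca2, 418 for Mlana, 429.6 for Tyr and 567 for Gpr143. The last rests on few retina counts, and its log2 difference of 9.15 ran from 8.72 to 11.32 when single libraries were left out, the highest without WT retina replicate 4.

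MITF, the regulator among the 10 genes, is known to bind the letters CATGTG, so promoters were searched for these letters on both strands (CACATG on the other strand), and the matches are shown to let the windows of the regulator and of its known targets be compared. Promoters from 250 bases before to 50 after the gene start (RefSeq, GRCm38.p6) were in the table for 5 of the 10 genes: Mitf with 3 windows, and Tyr, Tyrp1, Dct and Oca2 with 1 each. Pmel, Mlana, Slc45a2, Gpr143 and Rab38 were not matched. The letters were found in the windows of Tyr, Tyrp1, Dct and Oca2, with a pair of matches in Dct, and not in the windows of Mitf. Of 32851 promoters of this length, 14.15% held them. The related letters CACGTG, held by 7.15% of promoters, were in none of these windows. Capitals mark the matched letters, read 5′ to 3′ on the gene's strand, in Tyrp1 (chr4:80834140-80834199, plus strand), Oca2 (chr7:56239546-56239605, plus strand), Tyr (chr7:87493501-87493560, minus strand) and Dct (chr14:118052446-118052496 and chr14:118052364-118052423, minus strand).
Tyrp1: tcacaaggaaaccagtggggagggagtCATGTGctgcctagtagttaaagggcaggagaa
Oca2: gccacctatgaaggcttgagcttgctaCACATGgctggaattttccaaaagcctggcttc
Tyr: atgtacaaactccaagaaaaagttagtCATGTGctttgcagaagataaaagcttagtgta
Dct: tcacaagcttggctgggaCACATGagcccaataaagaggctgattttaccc
Dct: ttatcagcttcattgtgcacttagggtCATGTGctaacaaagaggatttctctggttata
The matches begin at -46 (Tyrp1), -186 (Oca2), -21 (Tyr), -232 and -150 (Dct), counted in bases from the RefSeq gene start, and they describe letters, not binding. For Tyrp1 the RefSeq start lies after the start of the gene span given above, so its window lies inside that span.

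The single-cell libraries held 26764 cells, between 2558 (WT P30) and 5633 (KO P25) per library, with median UMIs per cell from 1349 (KO P30) to 4357 (WT P25). They are called retina libraries here, while the study's text names both retina and RPE as sources of these cells. Of 26715 distinct barcodes, 49 occurred in more than 1 library. With 1 library per genotype and age there are no replicates, so no test was made, and the 95% exact Poisson intervals cover counting error only. The P30 libraries were sequenced in another batch and on another machine than those at P19 and P25, so age and batch cannot be told apart there, while both genotypes were in each batch. Cell names were rebuilt by clustering without the pigmentation genes, and no doublet caller was run.

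A cluster of 63 cells, 0.235% of all, carried 5 of 10 RPE markers among its 10 leading genes (Ttr, Rgr, Rdh5, Rpe65 and Slc16a8) and is called RPE-like. It held 11, 6 and 10 WT cells and 21, 4 and 11 KO cells at P19, P25 and P30, with a median of 1559 UMIs per cell and 150247 UMIs in all. Best2, Zic1, Zic2, Optc and Cryaa had 0 UMIs in it. Adipor1 stood at 1.94 UMIs per 10000 in WT RPE-like cells (14 UMIs, 95% interval 1.06 to 3.26) and 0.767 in KO (6 UMIs, 0.281 to 1.67), with overlapping intervals.

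All 10 genes were detected in RPE-like cells. Over all libraries their levels in UMIs per 10000 were 44.8 for Dct, 18.9 for Pmel, 5.66 for Tyrp1, 3.66 for Mlana, 3.53 for Tyr, 2.13 for Oca2, 0.865 for both Slc45a2 and Gpr143, 0.466 for Mitf and 0.0666 for Rab38, the last from 1 UMI. In 1501 rod-like cells (median 1042 UMIs), which should lack them and so give a level of free RNA, Dct was at 0.0224, Mitf had 2 UMIs, Mlana and Oca2 had 1 each, and the other 6 had 0, which allows up to 0.0165 per 10000. Levels in RPE-like cells were far above those in rod-like cells for each gene but Rab38, whose single UMI gives no level. Of the rod-like cells 1308 came from WT P30 and 21 and 9 from WT and KO P19, so they hardly measured free RNA in the other libraries. Larger clusters of 2865, 1919 and 1839 cells met no marker rule and are not in these values. Rp1 and Pde6a were among the leading genes of the clusters of 2865 and 1919 cells, and Gngt1 and Cnga1 of that of 1839. In the same order Dct was at 0.0371, 0.0476 and 0.0261 per 10000 and Pmel at 0.0451, 0.0317 and 0.00869, above the rod-like values for Pmel.

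Levels in RPE-like cells are given by library, each with 4 to 21 such cells, so differences between libraries cannot be told apart from genotype or age. Together the 10 genes gave 140.9 UMIs per 10000 in WT and 85.4 in KO at P19, 75.5 and 154 at P25, and 17.9 and 45.7 at P30. The KO to WT ratio was 0.606 (95% interval 0.522 to 0.704) at P19, 2.04 (1.63 to 2.56) at P25 and 2.55 (1.82 to 3.63) at P30. Dct had 83.1, 31.5 and 13.4 per 10000 in WT and 39.5, 97.4 and 28.8 in KO at P19, P25 and P30. Pmel had 30.25, 29.7 and 1.38 in WT and 21.4, 33.9 and 7.19 in KO. Over all ages the ratio was 1.13 (1.00 to 1.26), and when cells were instead taken by a UMI of at least 3 of the 10 RPE markers the level was lower in KO (43.7 UMIs per 10000) than in WT (53.9).

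For single genes over all ages, the KO to WT ratio was 1.08 for Dct (95% interval 0.929 to 1.27), 1.04 for Pmel (0.822 to 1.33), 0.858 for Tyrp1 (0.547 to 1.34) and 1.74 for Mlana (0.974 to 3.22), all with intervals that include 1. These ratios too are sums over ages that differ: for Dct the ratio was 0.476 (0.386 to 0.586) at P19, 3.09 (2.23 to 4.33) at P25 and 2.14 (1.43 to 3.26) at P30. For Pmel it was 0.706 (0.515 to 0.97), 1.14 (0.75 to 1.73) and 5.22 (1.7 to 21.3), for Tyrp1 0.485 (0.286 to 0.815), 2.73 (0.762 to 12.1) and 1.64 (0.277 to 11.2), and for Mlana 2.02 (0.831 to 5.58), 1.09 (0.393 to 2.99) and 3.07 (0.503 to 32.3). For Tyr it was 2.13 (1.16 to 4.10) and for Oca2 2.76 (1.20 to 7.11), sums over ages that differ in level and in their share of each genotype's UMIs. Tyr had 4.595, 1.78 and 0.344 UMIs per 10000 in WT and 5.65, 4.33 and 3.38 in KO at P19, P25 and P30, with KO to WT ratios of 1.23 (0.587 to 2.71), 2.43 (0.518 to 15) and 9.83 (1.32 to 436). Oca2 had 1.915, 1.19 and 0.344 in WT and 4.42, 2.16 and 1.27 in KO, with ratios of 2.31 (0.826 to 7.95), 1.82 (0.209 to 21.8) and 3.69 (0.296 to 194), so within ages only the interval of Tyr at P30, from 1 UMI in WT, did not include 1. Gpr143 rested on 5 UMIs in WT (2, 2 and 1) and 8 in KO (4, 2 and 2), a ratio of 1.47 (0.425 to 5.72), so a difference of the size seen in bulk RPE was not detectable at this depth. Mitf had 6 UMIs in WT and 1 in KO, and Slc45a2 gave a ratio of 0.789 (0.219 to 2.74).

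Summed over ages, most UMIs of several pigmentation genes in the retina libraries lay in a second cluster of 167 cells, which met no marker rule and is described by its leading genes, among them Cryaa, Optc, Fbln1, Dcn, Ptgds, Dct and Pmel. It held, mostly from P19, 73.0% of all Dct UMIs, 81.1% of Pmel, 87.8% of Mlana, 82.9% of Tyrp1, 71.0% of Tyr and 61.1% of Rab38, while RPE-like cells held 17.9%, 13.2%, 7.27%, 10.7%, 25.2% and 0.197% of the same genes. Gpr143 (43.3% against 36.7%) and Slc45a2 (50.0% against 42.3%) had larger shares in RPE-like cells, from 30 and 26 UMIs in all. Oca2 was spread, with 24.2% in RPE-like cells and 28.8% in the second cluster. This cluster held 83, 12 and 1 WT cells and 38, 31 and 2 KO cells at P19, P25 and P30, with a median of 7125 UMIs. Of Pmel it held 1230, 7 and 0 UMIs in WT and 499, 4 and 2 in KO at these ages, against 79, 50 and 4 in WT and 87, 47 and 17 in KO RPE-like cells. Of Dct it held 1986, 21 and 0 in WT and 562, 141 and 36 in KO, against 217, 53 and 39 in WT and 161, 135 and 68 in KO RPE-like cells. At P25 and P30 RPE-like cells thus held more of both genes in each genotype, apart from Dct in KO at P25. In it 36 cells held a UMI of Pmel, 55 of Tyrp1, 100 of Zic1, 6 of Cryaa and 0 of Rpe65.

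Within that cluster the cells were split by Pmel. The 21 cells with at least 10 Pmel UMIs, a threshold chosen after seeing the data, were 14 from WT P19 and 7 from KO P19, and they held 79.6 UMIs of Dct, 59.2 of Pmel, 20.05 of Mlana, 16.8 of Tyrp1, 3.91 of Tyr and 1.85 of Rab38 per 10000. Their high Pmel level follows from that choice. In the other 146 cells, which were low in Pmel by that choice, the level was 3.23 for Dct, 0.629 for Mlana, 1.24 for Tyrp1, 0.256 for Tyr and 1.78 for Rab38, so Rab38 was level in both and 257 of its UMIs lay in the other cells. Rpe65, Rgr and Myrip had 0 UMIs in the 21 cells, while Trpm1 (18.7 per 10000), Gpnmb (13.2) and Slc24a5 (6.15) were present.

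**Figure D3:**
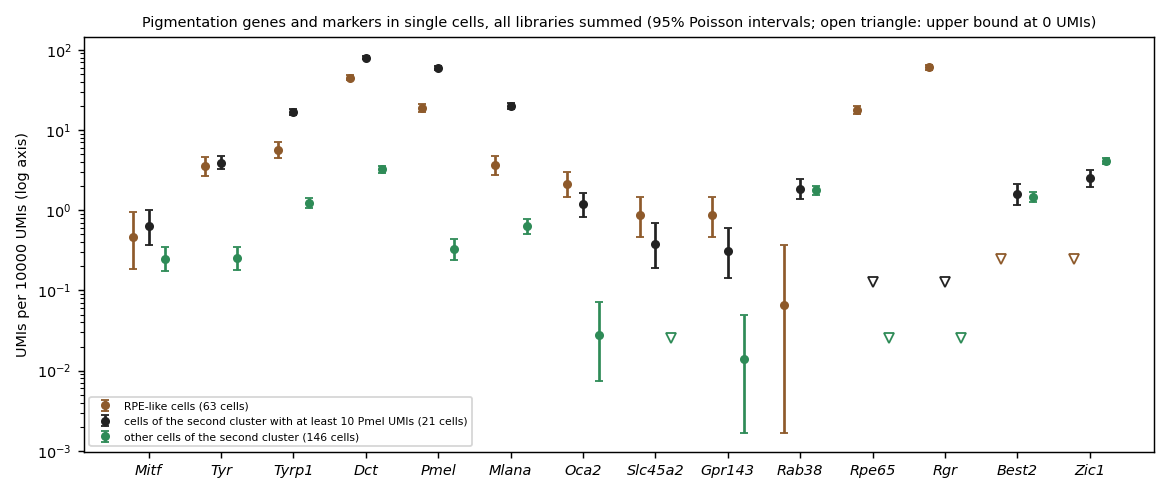
UMIs per 10000 of the pigmentation genes and of 4 marker genes on a log axis, in RPE-like cells and in the second cluster split by 10 Pmel UMIs, all libraries summed, with 95% Poisson intervals and open triangles for the upper bound at 0 UMIs. The 21 cells of the second cluster with at least 10 Pmel UMIs hold Dct at 79.6 and Pmel at 59.2 per 10000 and 0 UMIs of Rpe65. Their Pmel level is high by the choice of cells.

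Mitf was found mostly in other cells, with 92.8% of its 843 UMIs outside both clusters. Its highest level among the 41 clusters was 0.938 UMIs per 10000, in a cluster of 190 cells led by Car3 and Slc17a8, beside 0.466 in RPE-like cells from 7 UMIs (95% interval 0.187 to 0.960). The Muller glia-like cluster held Rab38 at 0.129 per 10000.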

How the data were processed

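Bulk RNA-seq of RPE and retina and single-cell RNA-seq of retina were used. In the bulk tables the authors deposited raw counts per Ensembl gene; the single-cell matrix held values the authors had normalised to 10000 per cell and put on a natural log scale, with both steps applied 2 times, as the values themselves showed. After 1 inverse step every cell summed to 10000 and 66.67% of values were whole multiples of the cell's smallest value, and after the second step 99.99998% (tolerance 0.01), which gave UMIs. The submitters' notes name Cell Ranger 2.1, Seurat 3.2.2, edgeR 3.20.9, HOMER, bcl2fastq, FastQC and mm10, without their roles. Bulk counts were tested with edgeR 4.0.16 (R 4.3.3): filterByExpr, TMM, quasi-likelihood fit, Benjamini-Hochberg over all genes tested, each tissue alone, and all 16 libraries for the interaction. Alternatives were DESeq2 1.42.0, limma-voom (limma 3.58.1), library totals, no filter, a joint fit, each library left out, a 1.5-fold minimum and a replicate block. The last used replicate numbers: with group means removed, libraries of the same number correlated across genes at 0.29 to 0.66 in RPE and 0.16 to 0.22 in retina, though the KO library correlating best with a WT library had another number for 3 of 4 in RPE and 1 of 4 in retina. Covariates for marker levels and for Xist, and leaving out a pair of libraries, were chosen after seeing the data. Across tissues the numbers correlated at -0.10 to 0.23. Scaling by totals alone put the median log2 difference of all genes at 0.11 in retina, -0.18 in the interaction and -0.26 between WT tissues. Procedures were tested on simulated data. Exon lengths came from GENCODE M21.

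Cells were clustered with scanpy 1.11.5 and leidenalg 0.10.2 (1990 variable genes without the pigmentation and melanosome genes, 30 components, 15 neighbours, resolution 1.0, 41 clusters). A cluster was named when at least 3 of its 10 leading genes were markers of 1 class. Tables were made with pandas 2.3.3 and numpy 2.4.6 under Python 3.11.15, intervals with scipy 1.17.1 and plots with matplotlib 3.10.9.

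The 10 members and the 12 gene lists were chosen with earlier results of these data known. Named from the lists were genes that passed in RPE, at most 6 per list by smallest p, the most abundant gene of each marker list and the 5 genes most like the members' profile; others are said to be chosen after their values were seen. Some genes of the marker lists are not reported here.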

Additional observations from a re-analysis of the deposited data

Results flagged for a closer look

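Of 40 groups of 4 bulk libraries, 1 for each pigmentation gene, genotype and tissue, 1 held a library far from the others. Gpr143 in WT retina was 0.423 CPM in replicate 4 and between 0 and 0.0377 CPM in the other 3, a gap of 0.911 of the group's range, above Dixon's 95% critical value for 4 libraries. It rests on 12 counts against 0, 1 and 1. Chance alone marks about 1 in 20 such groups.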

How the results depend on the processing

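In RPE the alternatives other than those added after seeing the data gave 140 values for the 10 genes, of which 125 kept their direction and side of the threshold, 13 changed direction, 1 newly passed and 1 no longer passed. Oca2 changed sign by library totals (0.001), with limma-voom (0.011), in the paired fit with a replicate block (0.018) and in a fit of both tissues (0.001), and Mlana with limma-voom (0.004) and the replicate block (0.018). Leaving out single libraries gave Oca2 from -0.16 to 0.065 (positive without WT replicates 1 [0.018], 3 [0.042] or 4 [0.065] or KO replicate 3 [0.010]), Mlana from -0.222 to 0.271 (positive without WT replicate 4 [0.271] or KO replicate 3 [0.045]), and Tyrp1 from -0.177 to 0.094 (positive without WT replicate 4). With the ciliary covariate Mlana (0.44), Tyrp1 (0.109) and Dct (0.072) were positive. With the RPE marker covariate Oca2 (0.302), Tyrp1 (0.15), Mitf (0.128), Mlana (0.05) and Slc45a2 (0.007) were. Without WT replicate 4 and KO replicate 1, Mlana (0.17), Oca2 (0.062) and Tyrp1 (0.027) were, and Col3a1 was -0.004 (0.135 to 1.111 with single libraries left out).

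The number of the 10 genes passing in RPE was 1, and 0 in a fit of both tissues, with the ciliary covariate and without WT replicate 4 and KO replicate 1, 2 with the rod covariate, 3 with the RPE marker covariate, and 1 to 2 when single libraries were left out (2 without WT replicate 2). In retina it was 1, and 0 with DESeq2 and in a fit of both tissues, 2 with limma-voom and with the Xist covariate, 3 by library totals, without a filter and in the paired fit with a replicate block, and 1 to 3 when single libraries were left out (3 without WT replicate 4; 1, but Dct in place of Pmel, without WT replicate 2). Of the retina directions, Rab38 turned negative without WT replicates 1 (-0.077) or 3 (-0.14) or KO replicates 1 (-0.098) or 2 (-0.055), within -0.14 to 0.376, and Mitf without KO replicate 4, within -0.026 to 0.159. For the difference between tissues it was 0, and 1 with DESeq2, by library totals and with the replicate block, and 0 to 2 when single libraries were left out (2 without WT retina replicate 4, 1 without WT RPE replicate 3). All 10 were higher in WT RPE than WT retina under every alternative. The number of all genes passing in RPE, the background for these counts, was 1278, and it was 2701 with DESeq2, 2863 in a fit of both tissues, 645 to 2130 when single libraries were left out (2130 without WT replicate 1; 720, 696, 834 and 645 without KO replicates 1, 2, 3 and 4), 630, 2047 and 2305 with the ciliary, rod and RPE marker covariates and 422 without WT replicate 4 and KO replicate 1. In retina it was 5990, 1946 at a 1.5-fold minimum and 2731 in a fit of both tissues. Of the 4 pathway lists 1 gene passed in RPE, and 2 by library totals; DESeq2 called 4 genes for melanosome formation, 0 for melanosome transport, 1 for ion transport and 1 transcription factor, and limma-voom 0, 0, 1 and 0. The covariates and the pair left out were chosen after seeing the data. The cause of these differences was not tested.

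In RPE-like cells the 10 genes gave 80.9 UMIs per 10000, 85.5 in KO and 76.0 in WT. At resolution 2.0 the same 63 cells were found. By a gate of at least 3 of 10 RPE markers (105 cells, 61 of them in the cluster) the values were 49.07, 43.7 in KO and 53.91 in WT, so the direction between genotypes changed. In a separate setting, a mean over the RPE-like cells, the values were 45.48, 50.03 in KO and 39.42 in WT, with KO higher as in the main setting. With the pigmentation genes left among the genes clustered, no RPE-like cluster was named and no value was obtained. Gpr143, Mitf, Slc45a2 and Rab38 are limited by depth there, with at most 8 UMIs per genotype.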
